A study of Macaca mulatta with 6 samples.

Results

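The genes described here are 41 genes of DNA replication and the G1/S transition, the step at which a cell commits to copying its genome. They were chosen by symbol, as a list of replication proteins, deoxynucleotide enzymes and G1/S regulators, with earlier results of these data known, so their share of calls is no independent evidence of a direction. Of the 41 genes, 40 had a row among the 32386 rows of the count table, all 40 passed the filter on low counts, and ORC1 was not analysed here. The 6 RNA-seq libraries are labelled as granulocyte-macrophage colonies (CFU-GM) of rhesus macaque marrow, 3 as TET2 uniallelic (UA, genotype TET2+/-) and 3 as TET2 wild type (WT), and whether each UA library is a colony of its own is taken up with the library values. In both groups the colony had grown for 14 days in MethoCult, a semi-solid culture medium, from a single CD34+ stem or progenitor cell. The marrow was taken 15 months after the animal had received back its own CRISPR/Cas9-treated CD34+ cells, and the WT colonies come from the same kind of graft. Each colony was genotyped from part of its own cells, and the uniallelic mutations are predictions of lost function in TET2, an enzyme that oxidizes 5-methylcytosine. Neither the number of animals behind the colonies nor their age is given, so p-values measure only the spread between these 6 libraries, part of which may be technical.

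Replication begins in G1, when the origin recognition complex, CDC6 and CDT1 load the ring of MCM proteins onto origins of DNA. In S phase CDC45 and the GINS complex turn that ring into the active helicase, polymerase alpha and its primase lay down primers, and polymerases delta and epsilon extend them, held on DNA by the PCNA clamp that the RFC complex loads. E2F transcription factors and cyclin E drive many of these genes at the G1/S transition. In marrow cultures the program is strong in dividing granulocyte and monocyte precursors and is lost as they mature.

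Libraries held 17684447, 9861817 and 6334264 counts in UA replicates 1 to 3, and 25485143, 10574104 and 12005869 counts in WT replicates 1 to 3. TET2 averaged 231 ± 6.65 CPM in UA and 93.8 ± 14.9 CPM in WT (SD, n = 3 each), where CPM are counts scaled by edgeR to a common library total with TMM factors, and since allele-specific reads were not looked at, this does not check the labels. The UA libraries resembled each other more than the WT libraries did. Over genes with at least 100 counts in a pair of libraries, the median chi-square of the counts was 1.88 to 2.37 between UA libraries and 5.37 to 24.4 between WT libraries, where counting noise alone gives 0.455. Separate UA colonies and repeated libraries of 1 RNA source cannot be told apart from these values, so the tests were repeated with the UA libraries summed to 1 sample, where all spread comes from WT, and calls that this ended are named. Thinned to the same total, UA libraries had counts for 18721 to 19375 rows and WT libraries for 14819 to 15359. Ribosomal protein genes took 1.53 to 1.58% of counts in UA and 2.01 to 2.76% in WT, mitochondrial genes 0.73 to 0.739% in UA and 0.918 to 1.35% in WT, and the 10 most abundant rows 7.38 to 7.62% in UA and 4.94 to 5.93% in WT. The part of these differences in the results was not tested.

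Directions here rest on the labels of the count columns. The authors' deposited table of differential expression names neither the libraries it compares nor its direction, and its log2 fold changes ran mostly against UA over WT. Of 9874 genes tested that the authors' deposited table holds by Ensembl ID, 64.5% had the opposite sign there (across genes, which are not independent replicates, Pearson r = -0.42 and Spearman rho = -0.42). Of the 25 replication genes matched in this way, 21 had the opposite sign in the authors' deposited table (across the 25, Pearson r = -0.27 and Spearman rho = -0.22). E2F1, at -2.085, was the only gene of the 25 with a negative log2 fold change there, so genes that rose in UA were also positive. FEN1 was at 1.66 and RFC4 at 5.02 in the authors' deposited table. TYMS, at 5.185 there, had a log2 fold change of -0.20 in UA over WT, and POLA1, POLD3, RFC3 and E2F1 had the same sign in both. Which libraries that table compares, and in which direction, was not tested.

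Most replication genes were lower in the UA-labelled colonies, and the genes did not move as 1 block. Of 40 tested, 30 fell (75%) and 4 rose (10%) at an edgeR adjusted p under 0.05, and 6 did not pass. Among all 13768 genes tested, 31.4% were called lower and 34.6% higher in the same fit. The median log2 fold change (UA over WT) of the 40 was -0.98, and that of all genes tested was 0.12. FEN1, a flap nuclease, fell the furthest, by 9.69-fold, and POLE, the catalytic subunit of polymerase epsilon, rose the furthest, by 4.23-fold. With UA summed, 18 fell and 2 rose, against 17.5% lower and 21.4% higher of all genes. The 14 genes whose calls that fit ended were MCM2, MCM3, MCM5, MCM6, MCM7, CDT1, GINS3, GINS4, POLA2, POLD3, RFC3, LIG1, RRM1 and SLBP. Colonies are bulk samples, and fewer cycling cells or less of each RNA per cell cannot be told apart in them.

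**Figure D1:**
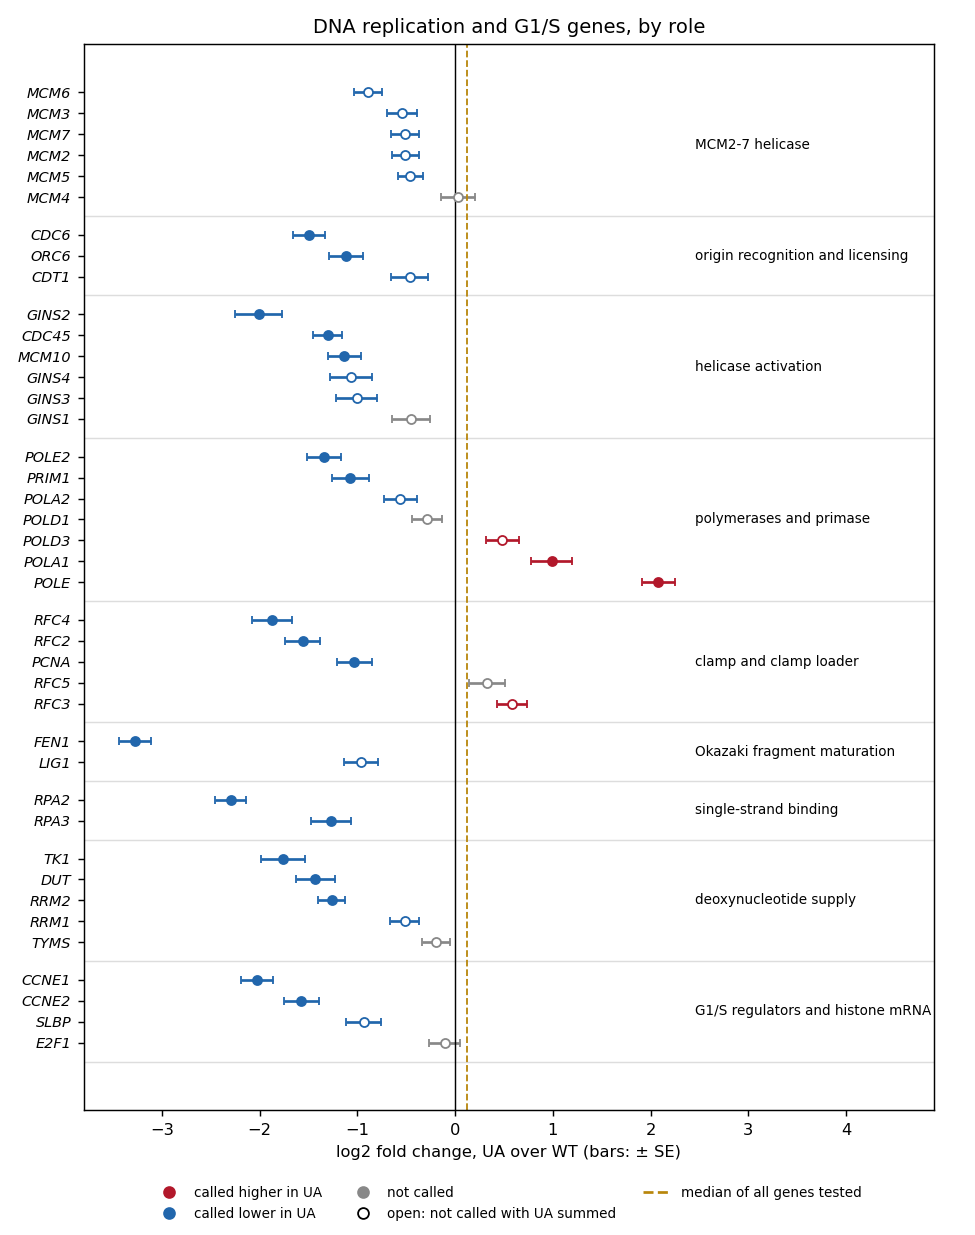
Log2 fold change, UA over WT, of each of the 40 genes with its SE, grouped by role (x axis: log2 fold change, y axis: gene). Blue points were called lower, red higher and grey not called, open points were not called with the UA libraries summed, and the dashed line is the median of all genes tested (0.12); FEN1 lies at -3.28 and POLE at 2.08.

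In the plot of every gene by library the 3 UA columns look alike. Relative to the mean of the WT libraries, the 40 genes had a median log2 level of -0.88, -0.98 and -1.04 in UA replicates 1 to 3. In each of those libraries FEN1 was the lowest and POLE the highest. All 3 UA libraries lay below all 3 WT libraries for 30 of the 40 genes and above them for 5, against 34% below and 39.2% above among all genes tested. Spread within a label was smaller in UA, with a median coefficient of variation of 6.08% over the 40 genes, than in WT, with 13.3%. In WT it passed 20% for 11 genes, GINS2 being the most variable at 35.5%, and in UA for 1, GINS4.

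**Figure D2:**
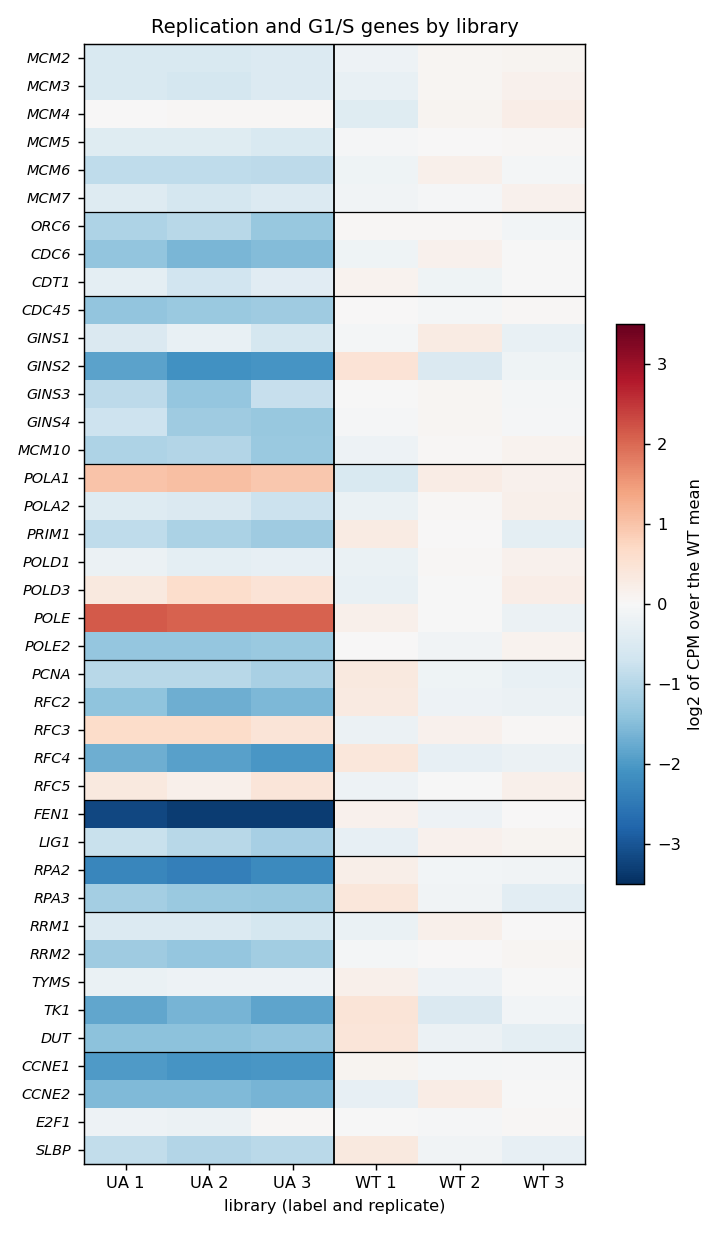
Log2 of each gene's CPM over its WT mean (color) in each library (columns, UA left of WT), with genes in rows and black lines between roles. FEN1 is the darkest blue row in UA, at -3.18 to -3.33, and POLE the darkest red, at 2.05 to 2.14.

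The ring of the replicative helicase, MCM2 to MCM7, fell modestly in 5 of its 6 subunits. MCM6 had the largest change of the ring, with 259, 261 and 255 CPM in UA replicates 1 to 3 and 431, 547 and 460 CPM in WT replicates 1 to 3. Its groups do not overlap, and its log2 fold change was -0.89 (SE 0.14, adjusted p = 0.000251 by edgeR; -0.87 and adjusted p = 0.0637 with UA summed). MCM3, MCM7, MCM2 and MCM5 had log2 fold changes of -0.54, -0.51, -0.51 and -0.46 (adjusted p = 0.00674 to 0.0101 by edgeR), and none of the 5 was called with UA summed. The call of MCM3 and MCM7 was also lost without UA replicate 2 (adjusted p = 0.0514 and 0.0548 by edgeR), and that of MCM5 without UA replicate 3 (0.0658). MCM4 did not pass, with 540.1, 549 and 557 CPM in UA against 400.2, 574 and 637 CPM in WT. WT replicate 1 was the lowest of the WT libraries there, and the UA values lie within the WT range. Its log2 fold change of 0.03 has a 95% interval of -0.45 to 0.52 (from the SE with 4 residual degrees of freedom), and it turned to -0.13 without WT replicate 1 and to -0.10 with limma-voom. The count ratio of MCM4 to MCM6 within a library, into which no scaling enters, was 2.09, 2.10 and 2.18 in UA and 0.93, 1.05 and 1.38 in WT, so these subunits changed unequally.

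All 3 genes tested that load the ring onto origins fell. CDC6, the ATPase that recruits the MCM ring to origins, had 53.6, 46.4 and 49.3 CPM in UA and 126, 156 and 140.1 CPM in WT. Every UA library was below every WT library, with a log2 fold change of -1.496 (SE 0.16, adjusted p = 1.58e-05 by edgeR). ORC6, a subunit of the origin recognition complex, averaged 34.8 ± 4.28 CPM in UA and 75.7 ± 4.32 CPM in WT (SD, n = 3 each; log2 fold change -1.12, adjusted p = 0.000191 by edgeR). CDT1, the partner of CDC6 in loading, was close to the threshold, at 30.5 ± 3.68 CPM in UA and 42.1 ± 4.04 CPM in WT (log2 fold change -0.47, adjusted p = 0.047 by edgeR). Its call was lost in 10 of 17 alternatives, with log2 fold changes from -0.54 to -0.30 over all of them. Leaving out UA replicate 1, UA replicate 2, UA replicate 3 or WT replicate 3 each ended it. The other origin recognition subunits, named after their values were seen, were split. ORC2 and ORC4 rose by log2 fold changes of 1.51 and 0.56, and ORC3 and ORC5 fell by 0.86 and 1.18 on the log2 scale, ORC3 and ORC4 not being called with UA summed (adjusted p = 0.0818 and 0.169).

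Factors that switch the loaded ring on fell in 5 of 6 cases. GINS2, a subunit of the GINS tetramer, had 39.2, 33.3 and 34.1 CPM in UA against 200.1, 102 and 128 CPM in WT. WT replicate 1 was the highest, and the log2 fold change was -2.01 (SE 0.24, adjusted p = 3.67e-05 by edgeR) with it and -1.68 without it. CDC45, the helicase cofactor, fell to 62.7 ± 3.02 CPM in UA, against 154.8 ± 5.90 CPM in WT (SD, n = 3 each), and MCM10, an activation factor, to 52.2 ± 5.21 CPM in UA, against 115 ± 12.3 CPM in WT. Their log2 fold changes were -1.30 and -1.13 (adjusted p = 2.11e-05 and 0.000132 by edgeR). GINS3 and GINS4, of the same tetramer, had log2 fold changes of -1.01 and -1.07 (adjusted p = 0.073 and 0.0824 with UA summed). GINS1, the remaining subunit, did not pass. It had 47.3, 55.8 and 43.6 CPM in UA and 63.6, 81.0 and 55.7 CPM in WT, so that 1 UA library lay just above the lowest WT library. Its log2 fold change was -0.45 (95% interval -0.99 to 0.09, adjusted p = 0.0616 by edgeR). Leaving out WT replicate 1 or WT replicate 3 brought it under the threshold as lower (adjusted p = 0.0141 and 0.0329), as did DESeq2, limma-voom and thinning.

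Polymerase genes split by subunit, with 3 of 7 higher and 3 lower. Among all genes tested 34.6% were higher and 31.4% lower, so these counts do not set the 7 genes apart. The genes that rose are the catalytic subunits of polymerases epsilon and alpha and POLD3, an accessory subunit of polymerase delta. POLE had 153.5, 145 and 145 CPM in UA and 39.7, 34.6 and 30.4 CPM in WT. The groups are far apart, with a log2 fold change of 2.08 (SE 0.17, adjusted p = 2.23e-06 by edgeR; 0.000244 with UA summed). POLE2, which encodes the B subunit of the same polymerase, went the other way, with 22.5, 22.3 and 23.2 CPM in UA and 57.7, 52.4 and 62.5 CPM in WT (log2 fold change -1.34, adjusted p = 5.98e-05 by edgeR). The small histone-fold subunits POLE3 and POLE4, named after their values were seen, had log2 fold changes of -0.68 and -1.81, of which POLE3 was not called with UA summed (adjusted p = 0.154). Within a library the count ratio of POLE to POLE2 was 6.83, 6.52 and 6.24 in UA against 0.689, 0.661 and 0.487 in WT, a 10.7-fold difference of means. The authors' deposited table places POLE on chromosome 11 (133069578 to 133134127) and POLE2 on chromosome 7 (111639302 to 111687121). That table names no build, and Mmul_8.0.1 is the build in the submitters' processing notes.

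Polymerase alpha with its primase, which starts each new strand, showed the same kind of split. POLA1, its catalytic subunit, had 123.5, 128.5 and 119 CPM in UA and 42.8, 74.9 and 69.6 CPM in WT. It rose by a log2 fold change of 0.99 (SE 0.21, adjusted p = 0.00165 by edgeR; 0.0407 with UA summed), and WT replicate 1 was the lowest library. POLA2, the accessory subunit, averaged 81.2 ± 8.73 CPM in UA and 120.0 ± 16.3 CPM in WT, and PRIM1, the catalytic primase, 74.1 ± 9.08 CPM in UA and 156 ± 33.7 CPM in WT (SD, n = 3 each). Their log2 fold changes were -0.56 and -1.07 (adjusted p = 0.0122 and 0.000513 by edgeR; 0.278 and 0.0484 with UA summed), and the call of POLA2 was also lost without UA replicate 3 (adjusted p = 0.0713). PRIM2, the large primase subunit, named after its values were seen, had a log2 fold change of 0.83 (adjusted p = 0.0131 by edgeR; 0.127 with UA summed). The count ratio of POLA1 to PRIM1 was 1.47 to 1.81 in UA and 0.226 to 0.569 in WT.

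Polymerase delta, which copies the lagging strand, held the smallest log2 fold changes of the 7 polymerase and primase genes. POLD3 had 137, 164 and 149 CPM in UA and 89.4, 107 and 126 CPM in WT. It rose by a log2 fold change of 0.48 (SE 0.17, adjusted p = 0.0261 by edgeR), a call lost without UA replicate 2, UA replicate 3 or WT replicate 2 and with UA summed, at log2 fold changes of 0.37 to 0.63 over all alternatives. POLD1, the catalytic subunit, did not pass, with 144, 130.4 and 136 CPM in UA against 142, 172.5 and 185 CPM in WT (log2 fold change -0.28, 95% interval -0.71 to 0.14). Dropping WT replicate 1 brought it to a lower call (-0.38, adjusted p = 0.000993 by edgeR), as did limma-voom (-0.36). POLD2, a subunit outside the 41 genes, fell by 1.91 on the log2 scale (adjusted p = 6.89e-06 by edgeR).

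**Figure D3:**
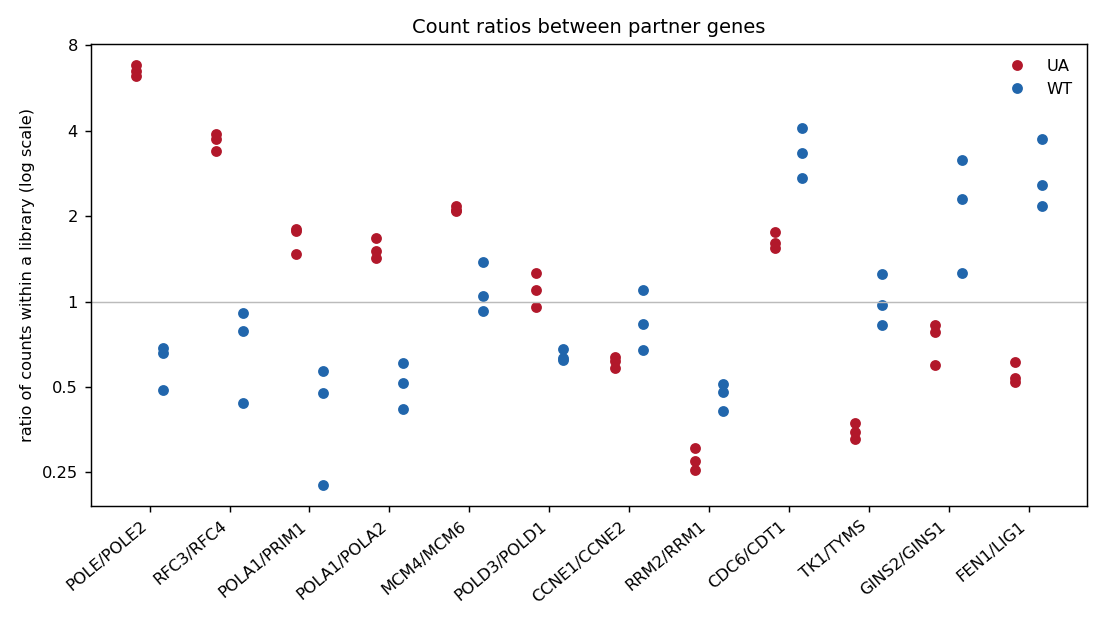
Ratio of raw counts between partner genes within each library (y axis, log scale), with UA (red) left of WT (blue) for each pair and 1 point per library. Ratios are not corrected for transcript length, so their place relative to 1 has no meaning; what differs is UA against WT, as for POLE/POLE2 (6.24 to 6.83 in UA and 0.487 to 0.689 in WT).

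The sliding clamp and the loader subunits RFC2 and RFC4 fell, while RFC3 rose. PCNA, the clamp, had 219.9, 219.5 and 197 CPM in UA and 549, 392 and 359.6 CPM in WT, with WT replicate 1 the highest and no overlap between the labels (log2 fold change -1.03, SE 0.18, adjusted p = 0.000413 by edgeR; 0.0493 with UA summed). RFC4, a loader ATPase subunit, fell to 64.6, 56.6 and 51.8 CPM in UA, against 278, 174 and 184 CPM in WT (log2 fold change -1.87, adjusted p = 1.92e-05 by edgeR). RFC2, another, had a log2 fold change of -1.56 (adjusted p = 2.92e-05 by edgeR). RFC3 went the other way, at 219.8, 221 and 194 CPM in UA and 122, 158 and 145 CPM in WT. It rose by a log2 fold change of 0.58 (SE 0.15, adjusted p = 0.00623 by edgeR; 0.143 with UA summed). RFC5 did not pass although its groups do not overlap, with 43.7, 39.3 and 46.5 CPM in UA and 30.2, 33.9 and 39.2 CPM in WT (log2 fold change 0.33, 95% interval -0.19 to 0.84). The count ratio of RFC3 to RFC4 was 3.40, 3.91 and 3.74 in UA and 0.438, 0.909 and 0.788 in WT. RFC1, the large loader subunit outside the 41 genes, had a log2 fold change of 0.45 (adjusted p = 0.0362 by edgeR; 0.303 with UA summed), a call also lost without any 1 of the UA replicates or without WT replicate 3 (adjusted p = 0.0899 to 0.118).

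Genes that process lagging-strand fragments and coat single-stranded DNA held the 2 deepest falls of the 40. FEN1, which the authors' deposited table places on chromosome 14 (12493363 to 12499007), had 43.9, 39.7 and 39.6 CPM in UA and 445, 351 and 399 CPM in WT. The highest UA library is far below the lowest WT library, with a log2 fold change of -3.28 (SE 0.16, adjusted p = 1.08e-07 by edgeR; 4.9e-05 with UA summed). LIG1, the ligase that seals the nicks FEN1 leaves, fell less, at 74.4 ± 9.85 CPM in UA and 145 ± 22.7 CPM in WT (SD, n = 3 each; log2 fold change -0.96, adjusted p = 0.000658 by edgeR; 0.0669 with UA summed). The count ratio of FEN1 to LIG1 was 0.520 to 0.612 in UA and 2.18 to 3.73 in WT. RPA2, the middle subunit of the single-strand binding protein RPA, had 71.3, 65.1 and 73.4 CPM in UA and 392.5, 324 and 315 CPM in WT (log2 fold change -2.30, SE 0.16, adjusted p = 9.08e-07 by edgeR). RPA3, its small subunit, averaged 63.1 ± 3.09 CPM in UA and 152.5 ± 42.1 CPM in WT (log2 fold change -1.27, adjusted p = 0.00024 by edgeR). RPA1, the large subunit outside the 41 genes, also fell, by 1.24 on the log2 scale, so no subunit of this trimer rose.

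Enzymes that supply deoxynucleotides fell in 4 of 5 cases. TK1, the thymidine kinase of S phase, had 58.5, 66.1 and 57.0 CPM in UA against 279, 146 and 192 CPM in WT. WT replicate 1 was again the highest, and the log2 fold change was -1.76 (SE 0.23, adjusted p = 5.39e-05 by edgeR). DUT, which removes dUTP, averaged 156 ± 3.43 CPM in UA and 420.2 ± 126 CPM in WT, and RRM2, the regulated subunit of ribonucleotide reductase, 115 ± 5.18 CPM in UA and 277 ± 14.2 CPM in WT (SD, n = 3 each). Their log2 fold changes were -1.43 and -1.26 (adjusted p = 0.000101 and 1.85e-05 by edgeR). RRM1, the large subunit of the reductase, fell less (log2 fold change -0.52, adjusted p = 0.00946 by edgeR; 0.291 with UA summed and 0.0593 without UA replicate 3), and the count ratio of RRM2 to RRM1 was 0.254 to 0.305 in UA and 0.411 to 0.514 in WT. TYMS, thymidylate synthase, did not pass, with 169, 176.5 and 174 CPM in UA and 223, 176 and 197 CPM in WT. Its lowest WT library lies within the UA range (log2 fold change -0.20, 95% interval -0.60 to 0.21, adjusted p = 0.255 by edgeR).

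Both cyclins E fell, while E2F1 did not pass the test. CCNE1, the cyclin that activates CDK2 at the G1/S transition, had 25.3, 23.9 and 24.7 CPM in UA and 108, 96.2 and 98.3 CPM in WT (log2 fold change -2.03, SE 0.16, adjusted p = 2.34e-06 by edgeR). CCNE2, its paralog, had 40.8, 40.9 and 38.5 CPM in UA and 98.2, 142.5 and 118 CPM in WT (log2 fold change -1.57, SE 0.18, adjusted p = 2.49e-05 by edgeR). Neither gene's groups overlap. E2F1, a transcription factor that drives replication genes, had 67.96, 65.7 and 78.9 CPM in UA against 75.7, 74.8 and 78.4 CPM in WT. Its groups overlap, with a log2 fold change of -0.11 (95% interval -0.54 to 0.33, adjusted p = 0.561 by edgeR), and library totals without TMM factors gave 0.05. SLBP, which binds the ends of histone mRNAs in S phase, averaged 107 ± 5.80 CPM in UA and 205 ± 47.8 CPM in WT (SD, n = 3 each; log2 fold change -0.94, adjusted p = 0.000915 by edgeR; 0.0707 with UA summed).

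**Figure D4:**
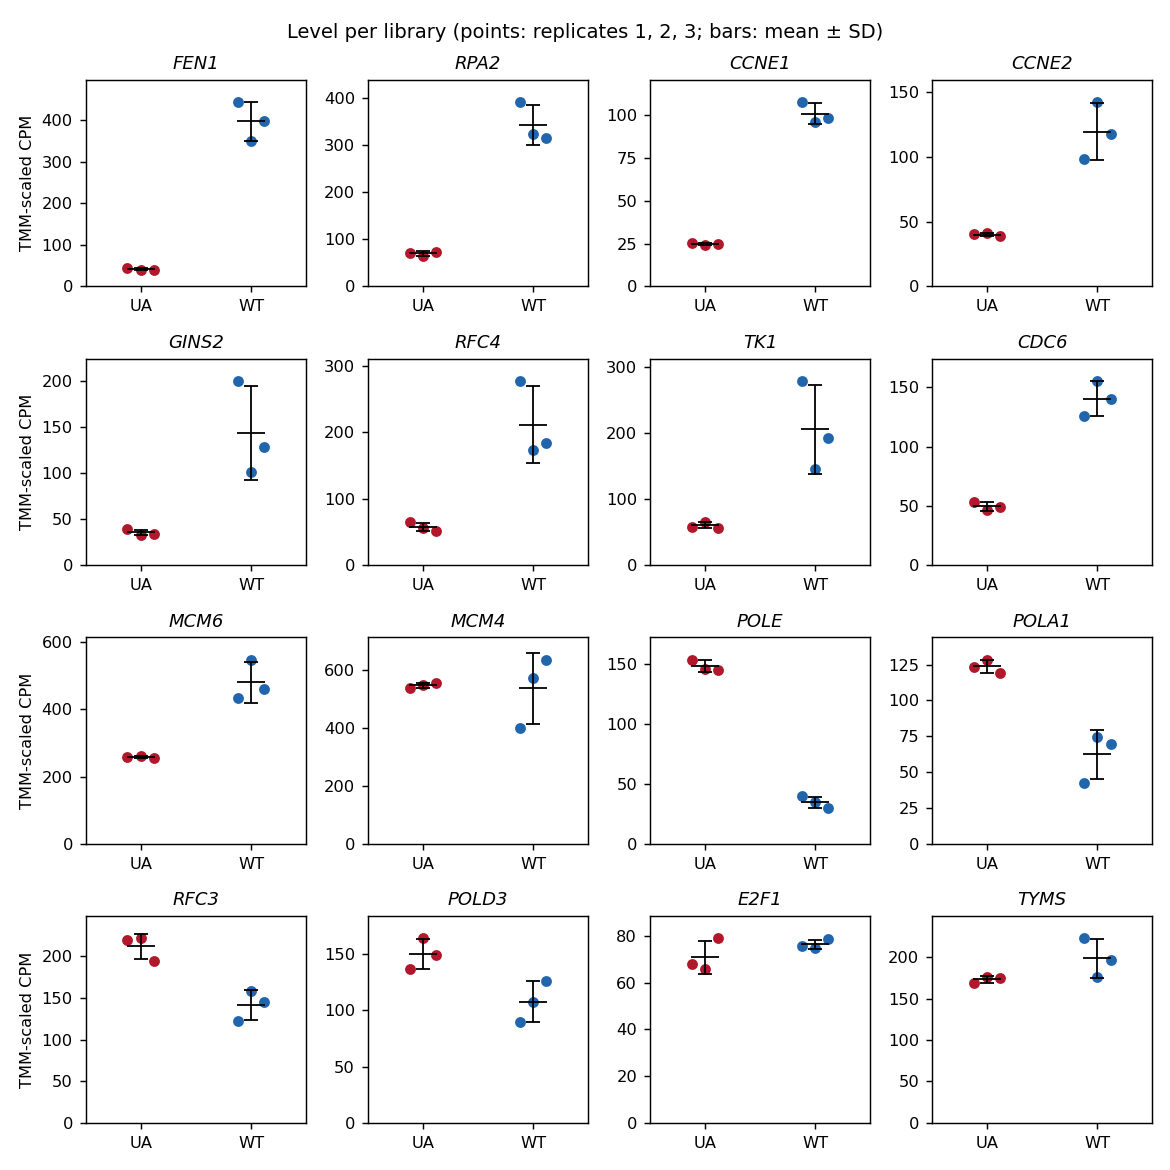
TMM-scaled CPM (y axis, from 0) of 16 genes in each library, UA left of WT, with 1 point per replicate and the mean ± SD as bars. FEN1, RPA2 and CCNE1 are separated by a wide gap, POLE is separated in the other direction, and MCM4, E2F1 and TYMS overlap.

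Genes of the same pathways outside the 41 went both ways, where 31.4% of all genes tested were lower and 34.6% higher. Of 31 other origin and fork factors tested, 15 fell and 9 rose, with a median log2 fold change of -0.36 (11 and 4 with UA summed). TIPIN, of the fork protection complex, and GMNN, geminin, the inhibitor of CDT1, fell by 2.22 and 2.06 on the log2 scale (adjusted p = 8.42e-06 and 1.74e-05 by edgeR), while TOPBP1, a scaffold for origin firing named after its values were seen, rose by a log2 fold change of 1.51. Of 20 other nucleotide supply genes 11 fell and 3 rose (median -0.65; 8 and 3 with UA summed). UMPS, of pyrimidine synthesis, and DTYMK, which makes dTDP, had log2 fold changes of -2.51 and -2.83. SAMHD1, which breaks deoxynucleotides down, had 212 ± 18.5 CPM in UA and 30.1 ± 8.78 CPM in WT (SD, n = 3 each), and rose by 2.82 on the log2 scale (SE 0.23, adjusted p = 2.61e-06 by edgeR). RRM2B, the reductase subunit used outside S phase, named after its values were seen, rose by a log2 fold change of 2.10 (adjusted p = 1.37e-05 by edgeR), against the fall of its paralog RRM2.

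G1/S control genes went both ways, with 12 of 27 higher, 8 lower and a median log2 fold change of 0.05 (8 higher and 5 lower with UA summed). With 31.4% of all genes tested lower in the main fit and 34.6% higher, the share of falls does not set this list apart. MYC and CDK4, drivers of G1 progression, fell by 2.15 and 1.77 on the log2 scale (adjusted p = 8.93e-07 and 1.16e-05 by edgeR). CDK6, the other partner of D-type cyclins, had 663 ± 31.3 CPM in UA and 155 ± 47.6 CPM in WT (SD, n = 3 each), and rose by 2.09 on the log2 scale (SE 0.22, adjusted p = 1.43e-05 by edgeR). E2F2, an activating E2F, was low in WT, with 26.5 ± 0.788 CPM in UA and 2.02 ± 1.004 CPM in WT (log2 fold change 3.78, SE 0.38, adjusted p = 1.12e-05 by edgeR). Named after their values were seen, the pocket proteins RBL1 and RBL2, which hold E2F sites silent, rose by log2 fold changes of 1.65 and 1.41, and CDKN1B, the inhibitor p27, by 1.77.

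Replication-coupled chromatin and checkpoint genes fell in 6 of 19 and rose in 3 (median log2 fold change -0.25; 3 and 2 with UA summed), with the histone chaperone ASF1B at -1.80 and ATR, the kinase that senses stalled forks, at 1.43. Of 29 mitosis genes 13 fell and 3 rose (median -0.33; 5 and 2 with UA summed). CCNB1, cyclin B1, had a log2 fold change of -2.30, PTTG1, securin, -2.26 and AURKA, a spindle kinase, -1.52. MKI67, the antigen of cycling cells, named after its values were seen, was higher in UA by a log2 fold change of 0.37 (adjusted p = 0.0321 by edgeR; 0.336 with UA summed), a call also lost without any 1 library other than WT replicate 1 (adjusted p = 0.0793 to 0.139). Of all genes tested, 31.4% were lower and 34.6% higher in the main fit. The chromatin and checkpoint list lay near the first share, so its falls do not set it apart. The difference between the 41 genes and these lists was not tested.

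**Figure D5:**
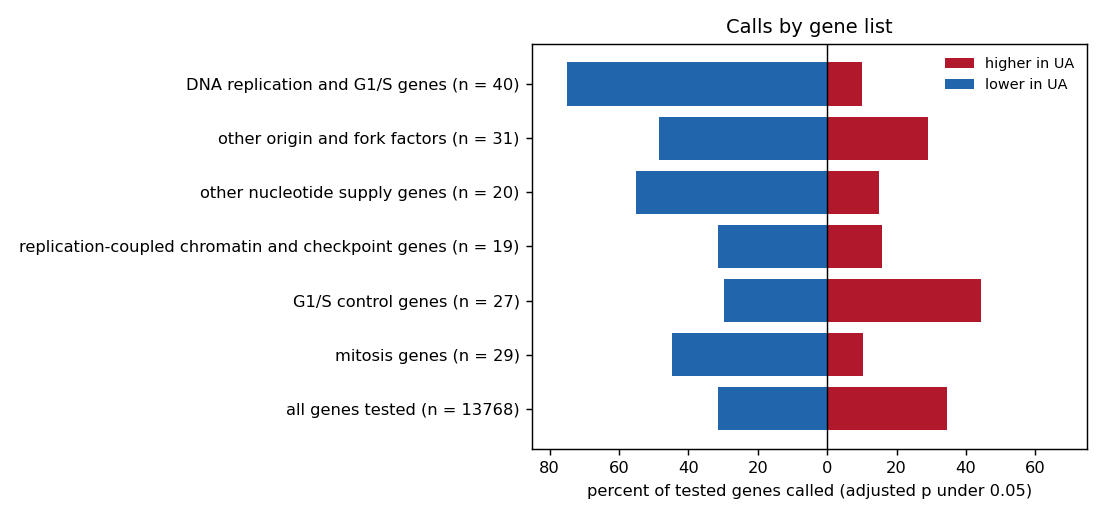
Percent of tested genes called lower (blue, to the left of 0) or higher (red, to the right) in UA, for the 40 replication and G1/S genes, the other lists and all genes tested (rows, with the number tested). The 40 genes have 75% lower and 10% higher, and all genes 31.4% lower and 34.6% higher.

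The same UA libraries differed from WT in markers of cell type. Both labels held transcripts of granulocyte and monocyte genes, and primary granule markers were higher in 7 of 8 tested, summing to 24490 to 25350 CPM in UA and 1211 to 1322 CPM in WT. Monocyte and macrophage markers were higher in 8 of 11 and lower in 1, CD14, with sums of 8349 to 8500 CPM in UA and 1737 to 2161 CPM in WT. LYZ, lysozyme, made up 7514 to 7648 CPM of that sum in UA and 403 to 534.5 CPM in WT. Without LYZ the direction of the sum turned, at 835 to 852 CPM in UA and 1282 to 1627 CPM in WT. Most of that remainder in WT was CD14 alone, at 965 to 1410 CPM, against 18.4 to 24.1 CPM in UA. Stromal and endothelial markers were higher in 11 of 12, with sums of 1360 to 1389 CPM in UA and 169 to 186 CPM in WT, and SELE and COL3A1 had 1 count each over the WT libraries. Of 10 megakaryocyte markers 5 were higher and 1, TUBB1, lower, with sums of 848 to 865 CPM in UA and 434.5 to 480.4 CPM in WT. Most of that sum in WT was TUBB1, at 411 to 456 CPM, against 191 to 220 CPM in UA. Without TUBB1 the sums were 645 to 666 CPM in UA and 21.14 to 24.35 CPM in WT. Mast cell and eosinophil markers rose in 5 of 6 (1433 to 1546 CPM in UA, 93.2 to 99.96 CPM in WT), with IL5RA at 0 in WT. Of 5 erythroid markers 3 were higher and 2 lower (33.7 to 45.3 CPM in UA, 212 to 260.1 CPM in WT). Of 7 lymphoid markers 4 were higher and 3 lower (203 to 226 CPM in UA, 244.5 to 285 CPM in WT). CD3E and CD8A, under the filter on low counts, are not among those 7. CD3E had 1, 5 and 1 counts in UA replicates 1 to 3 and CD8A 2, 0 and 0, with 0 for both in WT. Without GZMB the lymphoid sum turned as well, at 198 to 222 CPM in UA and 135 to 154 CPM in WT, and without RHAG the erythroid sums overlapped, at 23.1 to 30.1 CPM in UA and 14.6 to 24.2 CPM in WT. The part of these cell types in the replication gene results was not tested.

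The library kit marks no strand, so reads from a stretch shared by overlapping genes cannot be told apart by strand. Overlap was taken between whole gene spans, and how much exon sequence is shared was not measured. In the RefSeq annotation of assembly T2T-MMU8v2.0, 9 of the 41 genes overlap a protein-coding gene, namely MCM7, ORC6, GINS2, POLE, POLE2, RFC2, RFC4, RFC5 and CCNE2. TK1 was not found in that annotation, so its overlaps are not known. PXMP2, which overlaps POLE, was at 3.34 ± 2.03 CPM in UA and 2.12 ± 1.95 CPM in WT (SD, n = 3 each), and was not called, while POLE averaged 148 ± 4.91 CPM in UA and 34.9 ± 4.66 CPM in WT. COX4I1, which overlaps GINS2, was at 269 ± 15.1 CPM in UA and 611.5 ± 209 CPM in WT and was called lower. EIF4A2, which overlaps RFC4, was at 257 ± 6.33 CPM in UA and 212.5 ± 11.3 CPM in WT and was not called. AP4M1 (overlapping MCM7) and WSB2 (overlapping RFC5) were called lower, at log2 fold changes of -0.81 and -0.85. KLHDC1 (overlapping POLE2) and INTS8 (overlapping CCNE2) were called higher, at 2.62 and 0.75. VPS35 (overlapping ORC6) and CLIP2 (overlapping RFC2) were not called. Processed copies of PCNA, FEN1, DUT and RRM2 are known in the human genome, and similar copies could share reads with these genes here.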

How the data were processed

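The authors deposited raw counts per gene for 6 libraries made with SMART-Seq V4 cDNA and Nextera XT kits, per the labels' protocols. The submitters' processing notes name the build Mmul_8.0.1 and bcl2fastq, and no aligner or counter is given in the sources used here. Rows (29857 by Ensembl ID, 2529 by symbol) took symbols from the row name, the authors' deposited table of differential expression (9226 IDs) or a table of gene names (7223 IDs), and 13408 IDs have none. The log2 fold changes in the authors' deposited table were set beside UA over WT by sign and correlation, since neither their libraries nor their direction is named. Coordinates were looked up in it by symbol and found for 22 of the 41 genes. MCM2, POLA1, PRIM1, RPA3, RRM1 and DUT, matched there by Ensembl ID, are not among the 22. No sequences were used here.

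The main test was edgeR 4.0.16 under R 4.3.3 (filterByExpr with minimum count 10 and minimum total 15, TMM, robust quasi-likelihood F-test, label as the only term, Benjamini-Hochberg over 13768 genes). SE is the log2 fold change over the square root of F. PCR copies are counted as reads, so depth covers counting error only. Alternatives were DESeq2 1.42.0 size factors and test, library size alone, no filter, at least 5 CPM in 3 libraries, limma-voom (limma 3.58.1), a replicate block, leaving out each library, summing UA, thinning to 6334264 counts, an adjusted p under 0.01, and summing the rows of a symbol.

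All 41 genes could be named. Values per library go to those called higher, the largest change and the uncalled partners in each role, and the 8 largest changes, with PCNA, POLE2 and TYMS added after their values were seen. Other lists name genes of smallest p. The members and lists were chosen with earlier results of these data known, and the pairs of genes for count ratios after their values were seen.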

Additional observations from a re-analysis of the deposited data

How the results depend on the processing

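The counts of calls and the median log2 fold change held within 1.5 times, or within the spread between libraries, in all alternatives but 1. With the UA libraries summed to 1 sample, 2950 genes were called higher and 2410 lower. Of the 40 replication genes, 2 were higher and 18 lower in that fit. Summing leaves fewer degrees of freedom. The biological coefficient of variation, edgeR's estimate of spread beyond counting noise, was 0.31 with UA summed and 0.232 in the main fit. The part of each in the lost calls was not tested. Leaving out 1 library gave 3 to 4 genes higher and 26 to 32 lower of the 40, with a median log2 fold change of -1.06 to -0.93. In the other alternatives the median was -1.002 to -0.83. Library size alone moved the median of all genes from 0.12 to 0.28 and left 23 of the 40 lower. The 7 calls it ended were those of MCM2, MCM3, MCM5, MCM7, CDT1, POLA2 and RRM1. The sign of MCM4 turned with limma-voom (-0.10) and when a library was left out (-0.13 without WT replicate 1, up to 0.16 without WT replicate 3), and that of E2F1 with library size alone (0.054), and the cause was not tested. Deviations of same-numbered libraries from their group means correlated at 0.02 to 0.03, and each library correlated best with its own number. Values this small cannot settle whether replicate numbers pair the samples. With a replicate block 4 of the 40 genes were higher and 29 lower. Of 577 refits of the 34 other genes named, 551 kept the direction and the call. Depth limits the lowest genes, GINS4 holding 103 counts in the smallest UA library.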

Other observations

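WT replicate 1, the deepest library, differed from the other WT libraries gene by gene and little in the TMM-scaled sum of the 40 genes. Those sums were 5180 to 5362 CPM in UA, 8908 CPM in WT replicate 1, and 8704 and 8718 CPM in WT replicates 2 and 3. As a share of all counts, without TMM factors, the 40 genes took 0.765% in WT replicate 1. That share was 0.861 and 0.862% in WT replicates 2 and 3, and 0.551 to 0.559% in UA. WT replicate 1 was the highest WT library for 16 of the 40 genes and the lowest for 19. Of 13744 genes tested both with and without it, WT replicate 1 was the highest for 5445 and the lowest for 5248. The count of 16 therefore does not set the 40 genes apart in WT replicate 1. GINS2, TK1, DUT, RFC4 and RPA3 had 1.74, 1.65, 1.63, 1.55 and 1.54 times the mean of the other WT libraries there. POLA1, MCM4, LIG1 and CCNE2 had 0.593, 0.661, 0.754 and 0.755 times that mean. Without WT replicate 1 the median log2 fold change of the 40 genes was -0.93, with 32 lower and 4 higher.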
